A study of Mus musculus with 4 samples.

Results

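The miRNAs described here are those best known from the nervous system: miR-124, miR-9, miR-128, miR-129, miR-137, miR-138 and miR-338, in any arm or copy. Membership was set by name, but the names were chosen with earlier results of these data known. The libraries listed 11 such miRNAs among 590 in all, and 10 of the 11 were listed in all 4 libraries. They were measured in cultured synovial fibroblasts, the connective tissue cells of the joint lining, from the hind joints of 8-week-old mice on a mixed background of the CBA/J and C57BL/6/J strains. The WT group held cultures from wild-type littermates, and the TghuTNF group cultures from mice that carry a human TNF transgene, a mouse model of arthritis. Each group had 2 biological replicates, and all cells were taken at passage 4. The sources used here do not give the promoter of the transgene or the number of animals behind each culture. Per the labels, most cells carried the fibroblast marker CD90.2 and few carried the macrophage marker Mac1.

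miRNAs are short RNAs that guide Argonaute proteins to messenger RNAs, chiefly through the seed near their 5′ end, and lower the output of those messenger RNAs. miR-124 and miR-9 are known for establishing neuronal identity, miR-128 and miR-137 for neuronal maturation, and miR-129 and miR-138 for control of excitability and of dendritic spines. miR-338 is known for promoting the maturation of oligodendrocytes, the myelinating glia of the brain. Both arms of a hairpin can be kept as mature miRNAs, and in older names the less abundant arm carries a star.

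Genotype differences were found for 2 of the 9 with enough reads to be tested, both higher in TghuTNF, where 4.75% of all tested miRNAs were called higher and 8.60% lower. The names in the libraries carry the mouse prefix, as in mmu-miR-129-3p, mmu-miR-129-5p and mmu-miR-138, which is left out from here on. miR-129-3p rose 2.28-fold and miR-138 rose 2.17-fold in TghuTNF fibroblasts, and none fell. Of the miR-138 matches 67.2% had 2 mismatches, and with perfect matches only its call was lost (edgeR adjusted p = 0.071). Neither call held in fits with a single WT library. miR-129-5p, the most abundant of the group, stood 1.59-fold higher and missed the threshold narrowly. miR-124, the defining miRNA of neurons, had no perfectly matching read in any library.

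The mature sequences of 9 of the 11 were found in RefSeq (GRCm38.p6) and are shown because the mismatch counts below are counted against sequences of this kind and because their seeds decide which messenger RNAs they can pair with. They are written 5′ to 3′ with the seed, bases 2 to 8, in capitals.
miR-129-5p: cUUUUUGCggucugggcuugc
miR-129-3p: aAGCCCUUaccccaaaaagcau
miR-138: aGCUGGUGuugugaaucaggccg
miR-128: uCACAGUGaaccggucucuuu
miR-137: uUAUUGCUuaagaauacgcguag
miR-9: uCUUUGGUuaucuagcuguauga
miR-9*: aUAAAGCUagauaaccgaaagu
miR-338-3p: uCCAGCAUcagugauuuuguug
miR-338-5p: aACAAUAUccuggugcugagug
No seed was shared between these 9, nor with any other mature miRNA listed in that table. The 3p arm of the other miR-129 hairpin has the seed of miR-129-3p and is shown next. The older names in the libraries were paired with the current RefSeq names of the same arms, and miR-129-3p with the 3p arm of the second hairpin. miR-124 and miR-138* are named only.

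Several of these miRNAs are made from more than 1 hairpin, and the counts do not separate the copies. miR-129-5p is identical in Mir129-1 (chr6:29022619-29022691, plus strand, in an exon of the lincRNA gene Gm3294) and Mir129-2 (chr2:94241364-94241453, minus strand, in an intron of Mir670hg). The 3p arms of these hairpins differ by 1 base, C20U, counted from the 5′ end of miR-129-3p, with the listed miRNA first and Mir129-1 second. The hairpins are printed with both arms in capitals because this base decides whether a 3p read counts as a perfect match.
Mir129-1: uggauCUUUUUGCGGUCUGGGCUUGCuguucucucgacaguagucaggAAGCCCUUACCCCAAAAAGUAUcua
Mir129-2: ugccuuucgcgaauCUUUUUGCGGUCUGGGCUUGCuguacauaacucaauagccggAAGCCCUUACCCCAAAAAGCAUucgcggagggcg
miR-138 is likewise encoded on different chromosomes, by Mir138-1 (chr9:122682876-122682974, in an exon of the pseudogene Gm47135) and Mir138-2 (chr8:94324311-94324381, in an exon of the lincRNA gene C78859). miR-128 has copies in introns of R3hdm1 and Arpp21, and miR-9 has 3 hairpins in exons or introns of lincRNA genes. miR-338 lies in an intron of Aatk, a kinase gene expressed in neurons, and miR-137 in an exon of the noncoding gene Gm26871. Locations are from GENCODE vM21 on GRCm38.

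Library totals were 16680860 and 26542371 matches for WT, and 27362819 and 22959408 for TghuTNF. The share of the 11 miRNAs was 0.0341% in WT replicate 1 (95% binomial interval by the exact method 0.0332% to 0.0350%), 0.0307% in WT replicate 2 (0.0301% to 0.0314%), 0.0498% in TghuTNF replicate 1 (0.0490% to 0.0506%) and 0.0457% in TghuTNF replicate 2 (0.0448% to 0.0466%). Both TghuTNF shares lay above both WT shares. Intervals cover counting error within a library only, not the spread between cultures. The reads carry no molecular identifiers, so duplicate reads of a molecule could not be removed. TghuTNF replicate 2 stood apart in its mismatches, with 11.67% of all matches carrying 2 mismatches against 8.21% to 8.73% in the other libraries.

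Of the 11, 9 passed the filter on low counts. Levels below are CPM, counts per 1000000 matches scaled with TMM factors. Differences between the genotypes were called by edgeR's quasi-likelihood test at an adjusted p of 0.05 over all 442 miRNAs tested. In that comparison 2 of the 9 rose, against 4.75% of all tested miRNAs called higher, and 0 fell, against 8.60% called lower. At an unadjusted p under 0.05 there were 3 of 9, the third being miR-129-5p, a share near the 29.0% of all 442. DESeq2 called these 3 higher and 0 lower, against 26 higher and 43 lower of the 442. Values in TghuTNF lay wholly above those in WT for 5 of the 9, against 30.8% of all tested miRNAs, and wholly below for 0, against 29.9%. The median log2 fold change of the 9 was 0.36, and that of all 442 was 0.0056. With perfect matches only, 1 of the 9 rose, against 5.00% of the 380 miRNAs tested that way, and 0 fell, against 8.16%. The genotypes then lay apart upwards for 4 of the 9 and downwards for 1, against 27.4% and 32.9%.

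**Figure D1:**
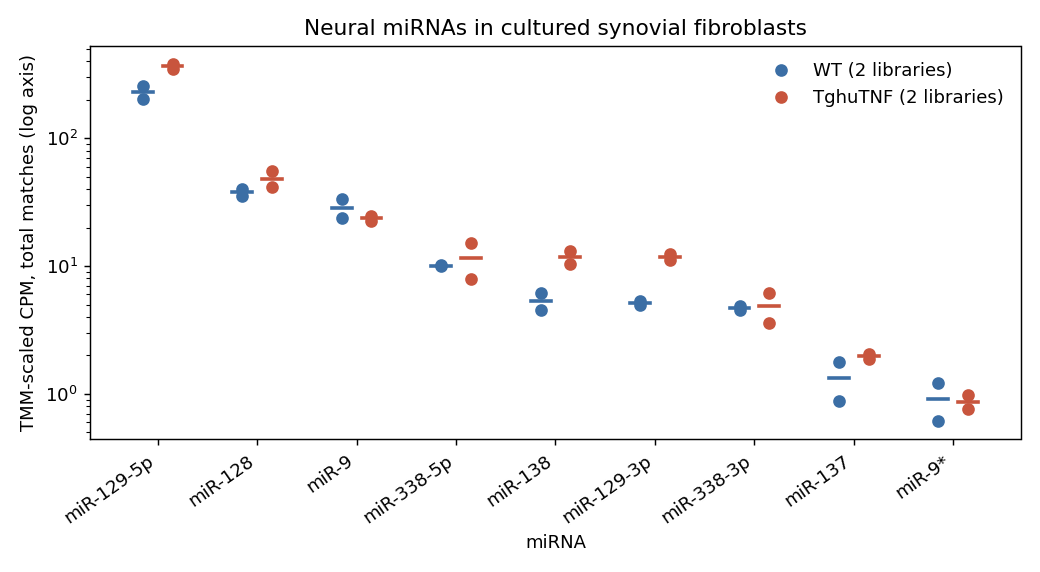
Level of each of the 9 neural miRNAs past the filter (TMM-scaled CPM of total matches, log axis) in the 2 WT and 2 TghuTNF libraries; points are libraries and bars are group means. miR-129-5p stands above all others in both genotypes. The points of miR-129-5p, miR-128, miR-138, miR-129-3p and miR-137 lie wholly higher in TghuTNF, as did 30.8% of all tested miRNAs.

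The group was dominated by a single miRNA. miR-129-5p supplied 73.7% and 67.8% of the summed CPM of the 9 in WT, and 77.4% and 74.7% in TghuTNF. It ranked between 89 and 106 among the miRNAs of a library. In WT fibroblasts miR-128 (37.6 ± 3.20 CPM, SD, n = 2) and miR-9 (28.7 ± 6.79 CPM) followed it. miR-338-5p came next with 10.0 CPM, and then miR-138, miR-129-3p and miR-338-3p with 4.69 to 5.37 CPM. The range of miR-138 overlapped those of miR-129-3p and miR-338-3p. miR-137 and miR-9* were near 1 CPM and overlapped. In TghuTNF fibroblasts the first 3 places were the same, while miR-138, miR-129-3p and miR-338-5p lay together at 11.6 to 11.7 CPM with overlapping ranges. Mature lengths are 21 to 23 bases, and dividing the CPM by length changed the order only among those 3 miRNAs in TghuTNF and between miR-138 and miR-129-3p in WT.

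Among the miRNAs of excitability and synapse, miR-129-3p, the scarcer arm of its hairpins, had 87 and 136 matches in WT and 307 and 278 in TghuTNF. Its level was 5.29 and 5.00 CPM in WT and 11.1 and 12.3 CPM in TghuTNF. Replicates lay close together and the TghuTNF values were clear of the WT values. The log2 fold change was 1.19 ± 0.27 (SE; edgeR adjusted p = 0.014). With perfect matches only, it was 1.10 ± 0.28 and the call remained (edgeR adjusted p = 0.032). Fits with a single WT library ended the call. The log2 fold change was 1.23 on leaving out WT replicate 1 (edgeR adjusted p = 0.096) and 1.14 on leaving out WT replicate 2 (adjusted p = 0.14).

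miR-129-5p, the abundant arm, which pairs through a U-rich seed, had 4196 and 5527 matches in WT and 10536 and 7828 in TghuTNF. Its level was 255 and 203 CPM in WT and 382 and 348 CPM in TghuTNF. Both TghuTNF libraries were above both WT libraries, as for the other arm. The log2 fold change of 0.67 ± 0.20 (SE) did not pass with edgeR (adjusted p = 0.051), and it was 0.62 ± 0.21 with perfect matches only (adjusted p = 0.088). It did pass with DESeq2 (adjusted p = 0.015) and without the filter on low counts (edgeR, 0.026). Upper quartile scaling lowered it to 0.56, which did not pass (edgeR adjusted p = 0.14), nor did unscaled library size (0.66, 0.058). Of the blocks described below, the replicate block passed (edgeR adjusted p = 0.0089) and the crossed block did not (0.061). When a library was left out the log2 fold change stayed positive, from 0.51 (WT replicate 2 left out) to 0.84 (WT replicate 1 left out).

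The ratio of the arms of miR-129 was lower in both TghuTNF libraries than in either WT library. miR-129-5p outnumbered miR-129-3p by 48.2 and 40.6 to 1 in WT and by 34.3 and 28.2 to 1 in TghuTNF. The ratios did not overlap between genotypes, also with perfect matches only (47.5 and 42.0 against 36.3 and 28.6). The difference between the arms' changes was not tested. Separation of 2 libraries from 2 was common: the levels of 30.8% of all tested miRNAs lay wholly higher in TghuTNF and 29.9% wholly lower. Reads of the 3p arm with 1 mismatch, the class into which a complete 3p read of Mir129-1 would fall, were 6 of 87 and 16 of 136 in WT and 35 of 307 and 30 of 278 in TghuTNF. That is 6.90% (exact 95% interval 2.57% to 14.4%) in WT replicate 1 and 11.8% (6.88% to 18.4%) in WT replicate 2, with 11.4% and 10.8% in TghuTNF. These shares of 1 mismatch overlapped within counting error. Reads of the 3p arm with 2 mismatches numbered 0 and 0 in WT and 9 and 14 in TghuTNF. Perfect reads made up 93.1% and 88.2% in WT and 85.7% and 83.1% in TghuTNF, a difference that was not tested.

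**Figure D2:**
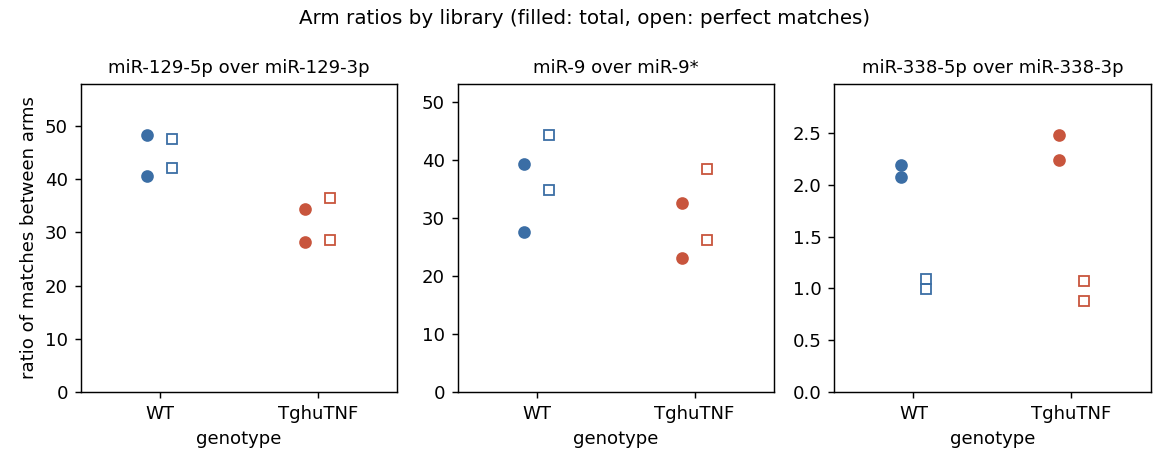
Ratio of the matches of the 2 arms of a hairpin in each library, by genotype, for total matches (filled circles) and perfect matches (open squares); each panel has its own linear axis from 0. The ratio of miR-129-5p to miR-129-3p is 28.2 and 34.3 in TghuTNF against 40.6 and 48.2 in WT, and the ratio for miR-338 falls from above 2 to about 1 with perfect matches.

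miR-138, which limits the growth of dendritic spines and is also known for restraining bone formation by mesenchymal cells, had 75 and 168 matches in WT and 284 and 297 in TghuTNF. Its level was 4.57 and 6.17 CPM in WT and 10.3 and 13.2 CPM in TghuTNF. The lowest TghuTNF library was well above the highest WT library. The log2 fold change was 1.12 ± 0.29 (SE; edgeR adjusted p = 0.032). Upper quartile scaling gave 1.01 and ended the call (edgeR adjusted p = 0.055). So did leaving out WT replicate 1 (log2 fold change 0.93, edgeR adjusted p = 0.29) or WT replicate 2 (1.36, 0.051). Its star arm, miR-138*, had only 1, 2, 1 and 4 matches and did not pass the filter.

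The reads counted for miR-138 were mostly not exact copies of it. Reads with 2 mismatches numbered 52 and 113 in WT and 184 and 205 in TghuTNF, against 21, 52, 90 and 85 perfect reads in the same order. The share with 2 mismatches was 69.3% (exact 95% interval 57.6% to 79.5%) in WT replicate 1 and 64.8% (58.9% to 70.3%) in TghuTNF replicate 1, the highest and lowest of the 4 libraries. Intervals overlapped between the libraries. They cover counting error only, and a difference of the mix between genotypes was not tested. Over the 4 libraries 67.2% of its matches had 2 mismatches and only 2.67% had 1. Among the 399 miRNAs with at least 100 matches, the median share with 2 mismatches was 6.33%, and 6.52% had a share at least as high as that of miR-138. No other mature miRNA in the RefSeq table came within 2 mismatches of miR-138 without gaps, over at least 18 bases. With perfect matches only, miR-138 stood at 1.82 and 2.78 CPM in WT and 4.62 and 5.61 CPM in TghuTNF. The log2 fold change was again 1.12, with a larger error of 0.35, and the call was lost (edgeR adjusted p = 0.071).

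**Figure D3:**
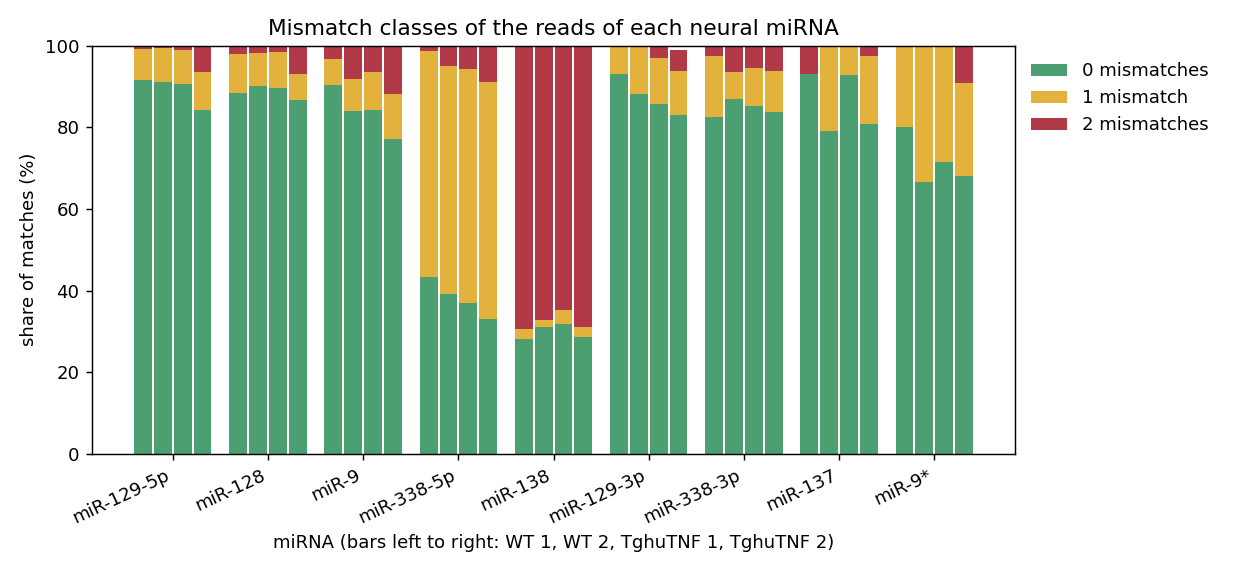
Share of the matches of each neural miRNA past the filter that had 0, 1 or 2 mismatches, with 1 bar per library; a small gap at the top of a bar is matches in no class. Reads with 2 mismatches fill most of the bars of miR-138 and reads with 1 mismatch most of those of miR-338-5p, in every library.

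Among the miRNAs of neuronal identity, miR-124 was not listed in either WT library and had 3 matches and 1 match in the TghuTNF libraries, each with 2 mismatches. The upper limit that a 0 leaves, 3 counts, came to 0.180 and 0.113 CPM in WT. No level of miR-124 could be told from 0 at this depth. miR-9, which represses the neuronal silencer REST, was plainly present, with 392 and 911 matches in WT and 684 and 510 in TghuTNF. That is 23.9 and 33.5 CPM against 24.8 and 22.6 CPM. The groups overlapped, and the log2 fold change of -0.28 ± 0.26 did not pass (edgeR adjusted p = 0.51). With perfect matches the TghuTNF values (29.6 and 26.0 CPM) lay below the WT values (30.7 and 41.0 CPM), and the change of -0.37 ± 0.26 did not pass either. miR-9*, which represses a subunit of the BAF chromatin complex in developing neurons, had 10 and 33 matches in WT and 21 and 22 in TghuTNF. Its log2 fold change was -0.13 ± 0.48. miR-9 outnumbered it by 23.2 to 39.2 to 1, with the genotypes overlapping.

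miR-128, which lowers neuronal excitability, had 655 and 962 matches in WT and 1140 and 1248 in TghuTNF, or 39.9 and 35.3 CPM against 41.3 and 55.4 CPM. The TghuTNF libraries were higher, the first of them by little. The log2 fold change was 0.36 ± 0.24 (edgeR adjusted p = 0.35), and 0.11 when TghuTNF replicate 2 was left out. miR-137, a regulator of neural stem cell differentiation, had 29 and 24 matches in WT and 57 and 42 in TghuTNF. Its level was 1.765 and 0.882 CPM in WT and 2.065 and 1.865 CPM in TghuTNF, without overlap. Its log2 fold change of 0.62 ± 0.42 did not pass (edgeR adjusted p = 0.36), and it ran from 0.15 to 1.15 when each WT library was left out.

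The miR-338 arms, the glial members, did not separate the genotypes. miR-338-5p stood at 10.1 and 9.92 CPM in WT and at 15.2 and 7.95 CPM in TghuTNF, so the TghuTNF libraries lay on either side of WT. miR-338-3p behaved alike, with 4.87 and 4.52 CPM in WT and 6.12 and 3.55 CPM in TghuTNF. Their log2 fold changes were 0.21 ± 0.33 and 0.050 ± 0.33. Without TghuTNF replicate 1 they were -0.41 and -0.48, and without TghuTNF replicate 2 they were 0.57 and 0.36, so their sign depended on which TghuTNF library was kept.

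Exact reads were also the minority for miR-338-5p, here through single mismatches. Between 55.4% (WT replicate 1, exact 95% interval 47.5% to 63.1%) and 58.1% (TghuTNF replicate 2, 50.5% to 65.4%) of its matches had 1 mismatch. Perfect reads made up 43.4% and 39.3% in WT and 37.0% and 33.0% in TghuTNF. Counted in full, miR-338-5p outnumbered miR-338-3p by 2.08 and 2.20 to 1 in WT and by 2.48 and 2.24 to 1 in TghuTNF. With perfect matches the arms were nearly equal, at 1.09 and 0.991 to 1 and at 1.08 and 0.881 to 1. For miR-129-5p, miR-128, miR-137, miR-129-3p, miR-338-3p and miR-9, in contrast, 83.7% to 89.2% of the pooled matches were perfect, and for miR-9* 69.8% were.

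**Figure D4:**
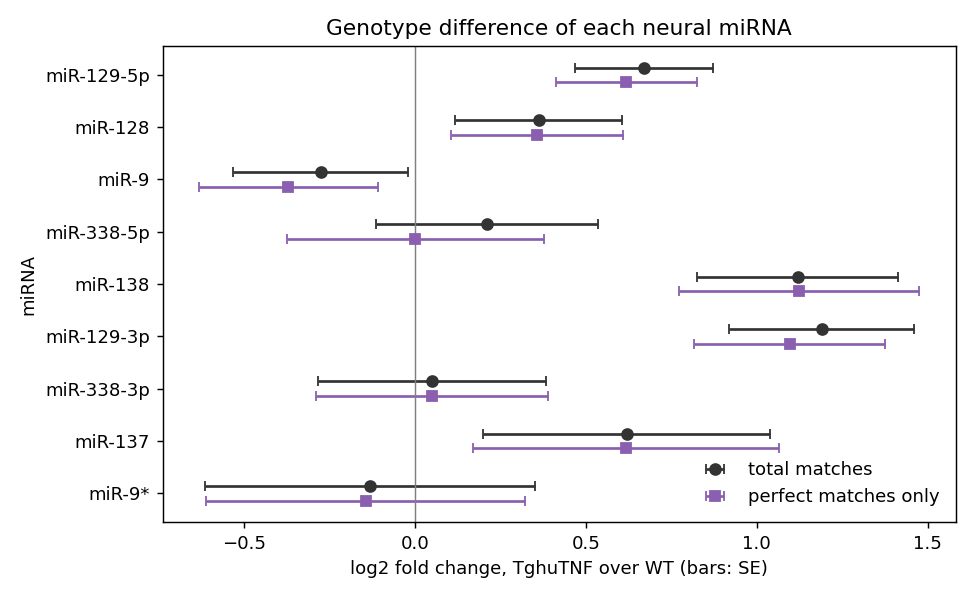
Log2 fold change, TghuTNF over WT, of each neural miRNA past the filter, with its standard error, from total matches (circles) and from perfect matches only (squares). The 2 counts give close values for miR-138 (1.12 both ways) and for miR-129-3p (1.19 and 1.10), while miR-338-5p goes from 0.21 to near 0.

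Over the 4 libraries, the profile most like that of miR-129-3p, by Euclidean distance of centred log2 CPM, was that of miR-1947 (distance 0.22), followed by miR-155 (0.33) and miR-667 (0.35). miR-1947 was scarce, at 0.220 to 0.577 CPM, while miR-155, an inflammatory miRNA, ran at 164 and 132 CPM in WT and 334 and 448 CPM in TghuTNF. Nearest to miR-138 were miR-664 (0.15), miR-694 (0.19) and miR-22 (0.26), the last at 4003 and 4449 CPM in WT and 7061 and 10077 CPM in TghuTNF. Each distance rests on the same 4 libraries. Both miRNAs were taken because they were called higher, so their nearest profiles were bound to be higher in TghuTNF and add no support. Of these neighbours edgeR called miR-155 and miR-22, but not miR-1947, miR-667, miR-664 or miR-694.

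Other miRNAs enriched in brain were examined as a second list: miR-7, miR-132, miR-153, miR-212, miR-218, miR-219, miR-326, miR-344, miR-346, miR-383 and miR-488. Of 15 listed names, 10 passed the filter, and edgeR and DESeq2 each called 0 of the 10, with 1 at an unadjusted edgeR p under 0.05, against 29.0% of all tested miRNAs. Their median log2 fold change was 0.22. The most abundant, miR-132, which CREB induces in active neurons, stood at 799 and 679.5 CPM in WT and 798 and 921 CPM in TghuTNF (log2 fold change 0.22 ± 0.18). miR-7a, a neuroendocrine miRNA, stood at 474.5 and 265 CPM in WT and 289.5 and 231 CPM in TghuTNF (-0.51 ± 0.27). The values of miR-7b followed those of miR-7a (-0.54 ± 0.27), but only 5, 0, 3 and 0 of its reads were perfect, so it is not a separate measurement. miR-219, an oligodendrocyte miRNA, had 3 to 6 matches per library.

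Markers of the labelled cell type and of other cell types were read in the same libraries. The counts called in each list stand against 4.75% of all tested miRNAs called higher by edgeR and 8.60% called lower. The fibroblast list (miR-21, miR-143, miR-145, miR-199 and miR-214) summed to 283368 and 296353 CPM in WT and 285359 and 306384 CPM in TghuTNF, with miR-21 the most abundant and 1 of 10 called, which was lower. With perfect matches only, 2 of the 10 fibroblast names were lower, against 8.16% of all miRNAs tested that way. In WT replicate 1 just 739 of 19087 matches of miR-199b* and 19 of 6572 of miR-145* were perfect, so their levels rest mostly on inexact reads. The 9 neural miRNAs together came to 346 and 299.5 CPM in WT and 493 and 465.5 CPM in TghuTNF. Without miR-129-5p they came to 90.9 and 96.5 CPM against 112 and 118 CPM. Blood cell miRNAs moved the same way: their 3 tested members summed to 15.8 and 6.06 CPM in WT and 28.3 and 21.2 CPM in TghuTNF, and 1 of the 3 rose. That was miR-223, a myeloid miRNA, at 0.609 and 0.294 CPM in WT and 3.26 and 2.40 CPM in TghuTNF (edgeR adjusted p = 0.0026). The most abundant, miR-142-3p, stood at 8.90 ± 5.32 and 18.6 ± 3.17 CPM (SD, n = 2) and did not pass. Of the untested names, miR-150, miR-144 and miR-451, only miR-144 was at 0 in any library, with 1 and 2 matches in WT and none in TghuTNF. Endothelial miRNAs, led by miR-126-3p, summed to 127 and 108 CPM in WT and 68.8 and 66.7 CPM in TghuTNF, with 1 of 2 lower. Muscle miRNAs, led by miR-206, summed to 2425 and 3007 CPM against 2054 and 1783 CPM. Of their 4 tested names 0 were called by edgeR or DESeq2, and 4 with edgeR and 1 with DESeq2 had an unadjusted p under 0.05, against 29.0% of all miRNAs with edgeR. miR-133b repeats the counts of miR-133a, so these are not 4 separate measurements. The epithelial sum was also lower, at 67.6 and 70.6 CPM against 36.5 and 30.3 CPM, with miR-203 the only 1 of its 4 tested names that was lower. miR-203 fell from 60.7 ± 2.40 to 22.5 ± 3.83 CPM (SD, n = 2). The other 3 tested names, miR-141, miR-200b and miR-200c, lay higher in TghuTNF (log2 fold changes 0.46, 0.44 and 0.30), and none of the 3 passed. Of the 66 and 101 miR-200b matches in WT, 0 and 4 were perfect, and of the 158 and 107 in TghuTNF, 21 and 1. Its totals ran close to those of miR-200c (70 and 109 in WT, 139 and 116 in TghuTNF), so it may not be a separate measurement. In the epithelial list, miR-200a, miR-141*, miR-200b*, miR-203* and miR-429 were at 0 in at least 1 library. The part of other cells in the rises of miR-129-3p and miR-138 was not tested, and in cultures a change in the number of such cells and a change in RNA per cell cannot be told apart.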

How the data were processed

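Small RNA was sequenced from 4 fibroblast cultures, 2 per genotype. The authors matched 37-base reads to 707 mouse miRNAs with mimap version 3d, allowing 2 mismatches and a hash length of 9, and deposited raw counts of matches per miRNA with their split by mismatches, per the file headers. The sources used here do not give a genome build, adaptor trimming or how reads matching several miRNAs were handled. Totals were 16680860 to 27362819 matches per library, so 3 counts are 0.110 to 0.180 CPM. Counts were filtered with filterByExpr, scaled with TMM and compared by genotype with edgeR 4.0.16 in R 4.3.3 (quasi-likelihood test, two-sided, Benjamini-Hochberg over 442 miRNAs, tested on simulated data). SE is the log2 fold change over the square root of F. Perfect matches were fitted separately (380 miRNAs).

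The text names every miRNA of the rule, the called and the 3 most abundant of the second brain list, the 3 profiles nearest each called miRNA (prior count 0.5) and the top marker of each cell type. Other names beside these (miR-219 and further cell type markers) were chosen after their values were seen. The miRNAs and lists were chosen with earlier results of these data known. The p-values reflect only counting error and the spread between replicate cultures. That spread was estimated partly from the other miRNAs tested.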

Additional observations from a re-analysis of the deposited data

How the results depend on the processing

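The 11 alternatives were DESeq2 1.42.0, no filter, upper quartile factors, unscaled library size, perfect matches only, each library left out, a replicate block, and a crossed block added after seeing the data. In every one 0 neural miRNAs were called lower. The number called higher was 2, and it became 3 with DESeq2, without the filter and with the replicate block, 1 with upper quartile factors, 1 with perfect matches only and 0 to 3 when a library was left out. Fits that leave out a library assume that the lone library of a genotype varies like the other pair. miR-129-3p kept its direction throughout (log2 fold change 1.08 to 1.23), as did miR-138 (0.90 to 1.36) and miR-129-5p (0.51 to 0.84). Upper quartile factors moved the median of all miRNAs to -0.10 and turned miR-338-3p to -0.042. Over all miRNAs, 21 were higher and 38 lower. Without the filter 39 were higher, and leaving out a library gave 17 to 61 higher and 29 to 92 lower, the most without TghuTNF replicate 1. Without TghuTNF replicate 2, 32 were higher. Leaving out a library turned miR-338-3p to -0.0094 (WT replicate 2) or -0.48 (TghuTNF replicate 1, against 0.36 without TghuTNF replicate 2), miR-338-5p to -0.41 (TghuTNF replicate 1, against 0.57 without TghuTNF replicate 2) and miR-9* to 0.50 (WT replicate 2). None of these was called, and the cause was not tested. Depth limits miR-124, miR-138*, miR-9* and miR-137, with at most 57 matches in any library.

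The labels number the replicates but give no pairing, and the differences between replicates 1 and 2 correlated across miRNAs at -0.11 between the genotypes. With the replicate block 34 miRNAs were higher, miR-338-3p stood at -0.0057 and miR-129-5p was called (edgeR adjusted p = 0.0089). With the crossed pairing 19 were higher and 36 lower.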
